A study of Homo sapiens with 12 samples.

Results

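Organic ion transporters of the SLC22, SLCO and SLC47 families were examined in prostate cancer cell lines that differ in their response to enzalutamide, an antiandrogen used against prostate cancer. The set held 10 genes chosen by symbol, of 57992 entries in the count table, and 7 of the 10 had enough counts to be among the 15407 genes tested. The set was put together because SLC22A3 was near absent in MR49F and SLCO3A1 was present in C4-2 but not in LNCaP. The values of these genes in the comparisons of MR49F and C4-2 with LNCaP therefore chose the set, and they are given below as a description with no test. Genes outside the set were tested.

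Poly(A) RNA of human prostate adenocarcinoma lines was sequenced with a stranded kit, with 3 biological replicates per line. LNCaP is an androgen-responsive line labelled sensitive to enzalutamide, C4-2 is a castration-resistant subline of LNCaP, also labelled sensitive, and MR49F was derived from LNCaP and is labelled resistant. The labels give no drug, dose, medium or genotype beyond the line and its sensitivity. C4-2R, a further line labelled resistant, was not analysed here. The resistant state is represented by 1 line, so resistance and other differences between MR49F and the sensitive lines cannot be told apart, and replicate spread covers cultures of the same line only. The 9 libraries held 6990461 to 42770072 gene counts, with C4-2 replicate 1 the deepest, and no pair of replicates differed by as little as counting noise. Levels are given in CPM, the counts of a gene scaled to a common library size with factors from the trimmed mean of M values (TMM). All 9 luminal prostate markers checked, among them KLK3, FOLH1 and KRT8, had counts in every line (summed level 5773 to 5935 CPM in LNCaP, 8916 to 9177 in MR49F and 7103 to 8151 in C4-2). The basal keratin KRT5 and the T-cell gene CD3E were at 0 in all libraries.

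Members of the SLC22 family carry organic cations, zwitterions or anions across the plasma membrane. SLC22A3 encodes OCT3, a low-affinity, high-capacity carrier of monoamines and cationic drugs, and SLC22A5 encodes OCTN2, the main carnitine importer. SLCO genes encode organic anion transporting polypeptides (OATPs), which move bile acids, thyroid hormones, prostaglandins, drugs and conjugated steroids such as dehydroepiandrosterone sulfate, a precursor that prostate cancer cells can turn into androgens. SLC47A1 encodes MATE1, which extrudes organic cations and works in series with the cation importers in kidney and liver.

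Promoters from RefSeq (GRCh38.p14) were matched by symbol for 6 of the 10 genes, and the 250 bases before the annotated start are shown for 3 that differ in their pattern over the lines. SLCO3A1 had no count in LNCaP and was expressed in C4-2, SLC22A5 was expressed at similar levels in all lines, and SLCO1B3 was at or near 0 throughout. All 3 lie on the + strand and are written 5′ to 3′, with CG pairs in capitals.
SLCO3A1, chr15:91853458-91853707: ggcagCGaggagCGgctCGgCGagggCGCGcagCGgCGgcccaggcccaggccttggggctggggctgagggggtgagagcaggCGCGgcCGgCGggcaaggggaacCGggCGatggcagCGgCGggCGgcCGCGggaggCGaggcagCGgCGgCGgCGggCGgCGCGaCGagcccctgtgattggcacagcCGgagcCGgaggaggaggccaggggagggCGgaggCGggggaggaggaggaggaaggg
SLC22A5, chr5:132369460-132369709: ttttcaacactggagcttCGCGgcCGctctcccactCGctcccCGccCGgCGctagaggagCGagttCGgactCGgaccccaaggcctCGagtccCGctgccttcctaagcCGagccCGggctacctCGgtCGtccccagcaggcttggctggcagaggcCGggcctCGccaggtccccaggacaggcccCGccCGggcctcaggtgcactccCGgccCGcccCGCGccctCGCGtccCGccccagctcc
SLCO1B3, chr12:20810455-20810704: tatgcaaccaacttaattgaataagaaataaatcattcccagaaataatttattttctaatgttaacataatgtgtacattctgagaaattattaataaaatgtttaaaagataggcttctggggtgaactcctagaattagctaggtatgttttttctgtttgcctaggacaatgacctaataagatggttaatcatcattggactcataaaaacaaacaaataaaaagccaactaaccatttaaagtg
This SLCO3A1 window, the first of 2 that RefSeq gives for the gene, held 32 CG pairs, a number that 9.52% of 35116 promoter windows of that length reach or exceed. SLC22A5 held 27 (17.7% of windows) and SLCO1B3 held 0, against a median of 11 over all windows (quartiles 3 and 23). The G+C content was 80.4% for SLCO3A1, 74.0% for SLC22A5 and 28.4% for SLCO1B3 (median 58.0%). The GC box GGGCGG, searched on both strands and itself holding a CG pair, occurred 3 times in the SLCO3A1 window, 4 times in that of SLC22A5 and not in that of SLCO1B3. It is present in 42.6% of all windows. The second SLCO3A1 window (chr15:91854054-91854303, not shown) also held 32 CG pairs, with 78.4% G+C and 2 GC boxes. The window richest in CG pairs of the 3 belonged to a gene with no count in LNCaP and the next richest to one expressed in all lines. Matches are letters in these windows and say nothing about binding or methylation, which were not measured.

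SLC22A3 (ENSG00000146477, GRCh38 chromosome 6, 160348268 to 160452581) was the most abundant of the set per length in LNCaP and was nearly lost in MR49F. In LNCaP replicates 1 to 3 it measured 624, 602 and 669 CPM. In C4-2 it measured 53.2, 50.5 and 57.0 CPM, and in MR49F 0.109, 0.237 and 0.345 CPM. The 3 lines formed separate levels with no overlap, high in LNCaP, intermediate in C4-2 and at a few reads per library in MR49F. The means were 632 ± 34.2, 53.6 ± 3.24 and 0.23 ± 0.118 CPM (SD, n = 3 each), from 16034, 3020 and 6 pooled counts. MR49F was thus 2648-fold lower than LNCaP (log2 fold change -11.37), a size that rests on the 6 MR49F counts. With single libraries left out, this log2 fold change was -11.78 to -11.03. C4-2 was 11.8-fold lower than LNCaP (log2 fold change -3.56, SE 0.0867). MR49F was 224-fold lower than C4-2 (log2 fold change -7.81, or -8.21 to -7.46 with single libraries left out). For the 2 MR49F comparisons no SE is given, because the one derived from the test was smaller than the counting error of 6 counts. In bulk RNA, fewer cells that express a gene and less RNA per cell cannot be told apart.

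Markers of other cell types were low, yet the hepatocyte, fibroblast and endothelial markers with counts in LNCaP were, like SLC22A3, lower in MR49F than in LNCaP. Hepatocyte markers (ALB, APOA1 and TTR) summed to 17.4 to 22.3 CPM in LNCaP, 1.75 to 3.22 in MR49F and 7.7 to 12.1 in C4-2, with 2 of 3 detected in LNCaP and APOA1 at 0 there. The members differed in C4-2, where ALB was at 0.963 CPM and TTR at 8.84, against 15.6 and 3.43 CPM in LNCaP and 2.11 and 0.498 in MR49F. Fibroblast markers (COL1A1, COL3A1 and DCN) summed to 25.5 to 29.2, 5.75 to 6.4 and 20.3 to 25.7 CPM in the same order, with DCN at 0 in LNCaP. COL1A1 measured 25.4, 5.71 and 16.5 CPM and COL3A1 1.77, 0.267 and 6.04. Endothelial markers (PECAM1 and VWF) summed to 3.29 to 4.81, 0.474 to 0.575 and 2.57 to 3.28 CPM, with PECAM1 at 0 in LNCaP. Each of these sums stayed far below the level of SLC22A3 in LNCaP, and their part in the result was not tested. Basal, leukocyte and kidney tubule markers summed to at most 1.34, 1.25 and 0.631 CPM in any library.

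**Figure D1:**
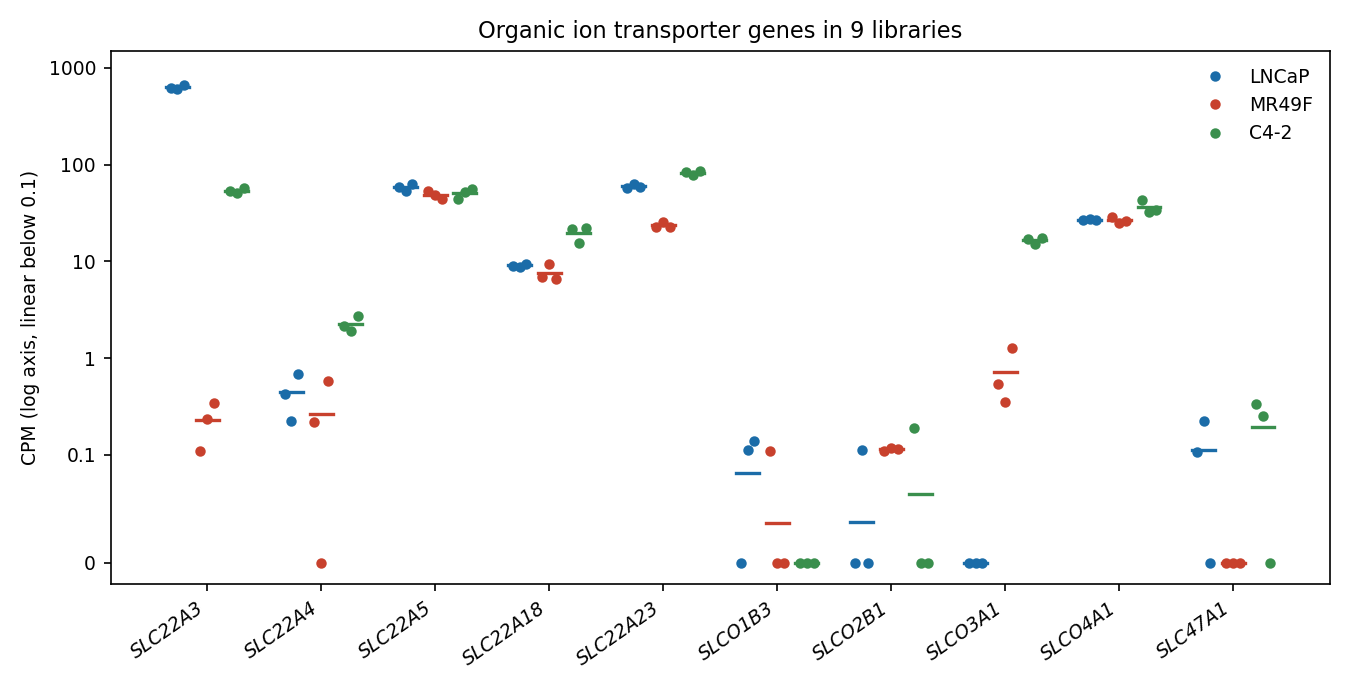
Level of each of the 10 transporters in each of the 9 libraries, in CPM on a log axis that is linear below 0.1, coloured by line, with a bar at the mean of 3 replicates. SLC22A3 falls into 3 separate levels, at 602 to 669 CPM in LNCaP, 50.5 to 57.0 in C4-2 and 0.109 to 0.345 in MR49F, while SLCO3A1 has no count in LNCaP.

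The carnitine and ergothioneine carriers of the family lie next to each other on chromosome 5 and behaved differently over the lines. SLC22A5, the carnitine importer OCTN2 (132369752 to 132395614), measured 58.5, 53.6 and 63.5 CPM in LNCaP, 53.1, 48.2 and 44.0 in MR49F, and 43.9, 52.3 and 55.8 in C4-2. Its MR49F libraries were all just below the LNCaP libraries (log2 fold change -0.27, SE 0.106), and those of C4-2 overlapped both other lines. SLC22A4, the ergothioneine carrier OCTN1 (132294443 to 132344206), measured 0.426, 0.227 and 0.688 CPM in LNCaP, 0.218, 0 and 0.575 in MR49F, and 2.16, 1.89 and 2.71 in C4-2. All C4-2 libraries were above all others, by 5.01-fold against LNCaP (log2 fold change 2.32, SE 0.441, slightly below the counting error). LNCaP and MR49F overlapped, with 11 and 7 pooled counts. Without MR49F replicate 3 the log2 fold change of SLC22A4 between MR49F and LNCaP moved from -0.68 to -1.85, and that between MR49F and C4-2 from -3.0 to -4.17.

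SLC22A23 and SLC22A18 are less well characterised members. SLC22A23 (chromosome 6, 3268962 to 3457022) measured 57.0, 62.5 and 59.0 CPM in LNCaP, 22.6, 25.7 and 22.5 in MR49F, and 84.7, 78.1 and 85.5 in C4-2. The lines did not overlap, with MR49F lowest and C4-2 highest. MR49F was 2.52-fold below LNCaP (log2 fold change -1.33, SE 0.0951) and C4-2 was 1.39-fold above it (log2 fold change 0.48, SE 0.0856). SLC22A18, in an imprinted region of chromosome 11 (2899721 to 2925246), measured 9.06, 8.84 and 9.35 CPM in LNCaP, 6.88, 9.36 and 6.56 in MR49F, and 21.4, 15.4 and 22.3 in C4-2. Every C4-2 library was above those of both other lines, by 2.19-fold against LNCaP (log2 fold change 1.13, SE 0.156), and MR49F overlapped LNCaP (log2 fold change -0.26, SE 0.18).

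Of the SLCO genes, SLCO3A1 and SLCO4A1 were expressed and SLCO1B3 and SLCO2B1 were not detectably so. SLCO3A1 (ENSG00000176463, chromosome 15, 91853695 to 92172435) encodes OATP3A1, a widely expressed carrier of prostaglandins and thyroxine. It had no count in any LNCaP library, measured 0.546, 0.355 and 1.27 CPM in MR49F, and 17.1, 15.3 and 17.3 CPM in C4-2. The measured values therefore ran C4-2, MR49F, LNCaP, with no overlap. The step from LNCaP to MR49F was not resolved in every library. A count of 0 allows up to 0.413 CPM in LNCaP replicate 3, above the 0.355 CPM of MR49F replicate 2. The pooled counts were 957 in C4-2, 19 in MR49F and 0 in LNCaP, where 3 counts over the group, taken as the floor, stand for 0.118 CPM. The pooled level of C4-2 was 143-fold and that of MR49F 6.14-fold above that floor. These folds serve as lower bounds for the LNCaP side only, because the floor covers counting error in LNCaP alone. The error of the 19 MR49F counts is not included, so the true MR49F fold could be below 6.14. On the log2 scale the MR49F bound of 2.62 moved to 1.94 without LNCaP replicate 1 or MR49F replicate 3 and to 1.99 without LNCaP replicate 2, and the C4-2 bound of 7.16 to 6.5 and 6.55 without LNCaP replicates 1 and 2. MR49F was 22.7-fold below C4-2 (log2 fold change -4.51), a size that rests on the 19 MR49F counts. It was -5.17 without MR49F replicate 3 and -4.19 without MR49F replicate 2.

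SLCO4A1, which encodes the thyroid hormone and prostaglandin carrier OATP4A1 (chromosome 20, 62642445 to 62685785), measured 26.6, 27.2 and 26.7 CPM in LNCaP, 28.5, 25.2 and 26.2 in MR49F, and 42.7, 32.1 and 34.0 in C4-2. LNCaP and MR49F overlapped (log2 fold change -0.01, SE 0.117, with a small positive value when 1 of the libraries was left out). C4-2 was above both in every library, by 1.38-fold against LNCaP (log2 fold change 0.46, SE 0.111).

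The steroid and bile acid carriers OATP1B3 and OATP2B1 were at the limit of detection. SLCO1B3 (chromosome 12, 20810702 to 20916911) had 2 pooled counts in LNCaP, 1 in MR49F and 0 in C4-2. No count in C4-2 allows up to 0.0529 CPM. SLCO2B1 (chromosome 11, 75100563 to 75206549) had 1, 3 and 8 pooled counts in LNCaP, MR49F and C4-2, all 8 from the deep C4-2 replicate 1. The C4-2 to LNCaP ratio of 3.6 had an exact 95% binomial interval of 0.482 to 160, so no difference was detectable at this depth. SLC47A1 (chromosome 17, 19495385 to 19579034) had 3, 0 and 16 pooled counts. Its C4-2 to LNCaP ratio was 2.4 (0.686 to 12.8), and the libraries of all lines overlapped. Against a floor of 3 counts in MR49F, the pooled C4-2 level was 2.48-fold higher, with 14 of the 16 counts from C4-2 replicate 1. Library by library, the lines thus showed no order for these 3 genes.

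**Figure D2:**
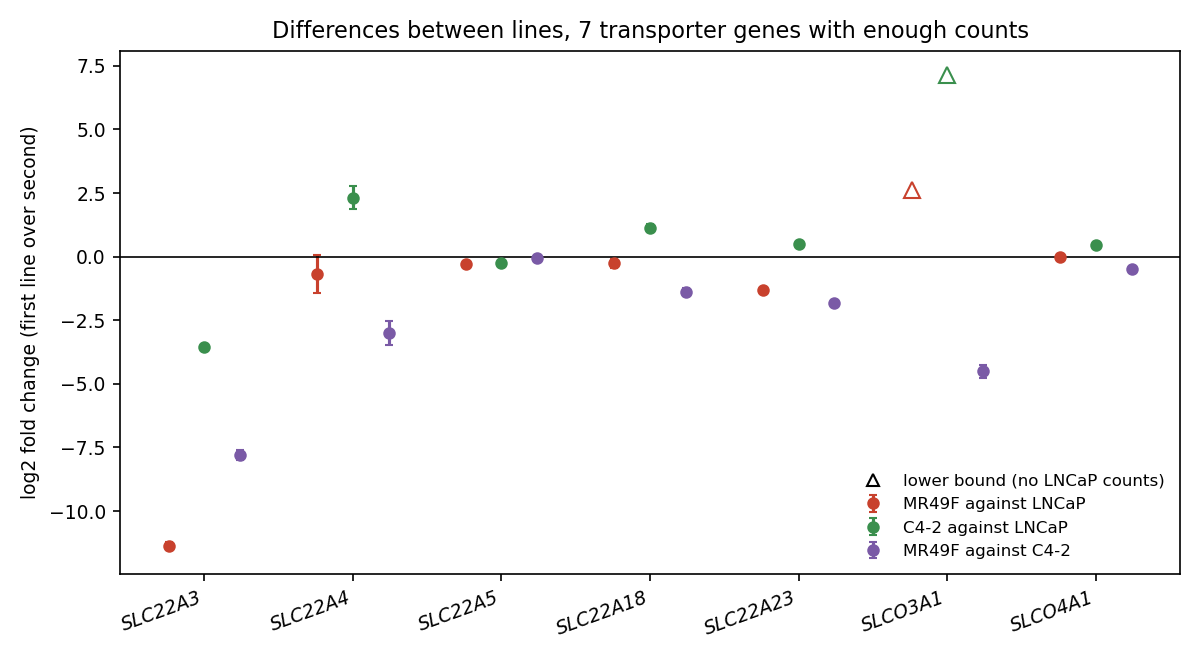
Log2 fold change of the 7 tested transporters (first line over second) for MR49F against LNCaP, C4-2 against LNCaP and MR49F against C4-2, as points with bars of 1 standard error and open triangles for lower bounds, used for SLCO3A1 because LNCaP had no count. SLC22A3 lies at -11.37, -3.56 and -7.81, and SLC22A5 between -0.27 and -0.04. In comparisons with MR49F, the bars of SLC22A3 (6 MR49F counts) and SLCO3A1 (19 MR49F counts) are shorter than the counting error. The same holds for SLC22A4 in MR49F against C4-2 (7 MR49F counts) and, slightly, in C4-2 against LNCaP (11 LNCaP counts).

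Between MR49F and LNCaP, replicates of the 7 tested transporters did not overlap for 1 gene higher in MR49F (SLCO3A1) and 3 lower (SLC22A3, SLC22A5 and SLC22A23). Of all tested genes, 30.7% were higher and 29.1% lower without overlap, 59.8% in all. Between C4-2 and LNCaP, 5 were higher and 1 was lower (SLC22A3), where 28.9% and 26.8% of all genes were, 55.7% in all. Between MR49F and C4-2, 6 were lower in MR49F and SLC22A5 overlapped, against 31.3% of all genes lower and 30.6% higher, 61.9% in all. Because these contrasts chose the set, nothing is read from these counts, and the comparisons with LNCaP share the same LNCaP libraries.

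Compared per kilobase of annotated exon, SLC22A3 stood first in LNCaP at 189 CPM per kb, above 98.7% of the tested genes (rank 134). SLC22A23 and SLCO4A1 followed at 6.69 and 6.63 CPM per kb with overlapping replicates, then SLC22A5 at 4.58, SLC22A18 at 1.71 and SLC22A4 at 0.166. In C4-2 SLC22A3 was still first, at 16.0 CPM per kb (rank 3454, above 77.2% of tested genes). SLC22A23 (9.3) and SLCO4A1 (8.95) overlapped each other there, as did SLC22A5 (3.96) and SLC22A18 (3.71), with SLCO3A1 at 1.76 and SLC22A4 at 0.839. In MR49F the order was SLCO4A1 (6.58), SLC22A5 (3.79), SLC22A23 (2.65) and SLC22A18 (1.43), without overlap. SLC22A4, SLCO3A1 and SLC22A3 came next at 0.0984, 0.0765 and 0.0688 CPM per kb, each overlapping its neighbour in the order. The transporter ranked first per length was therefore a cation carrier in LNCaP and C4-2 and an anion carrier in MR49F. That anion carrier, SLCO4A1, was itself nearly level between LNCaP (6.63) and MR49F (6.58). SLC22A3 and SLC22A23, which preceded it in LNCaP (189 and 6.69, the latter overlapping it), were at 0.0688 and 2.65 in MR49F. Exon length was the union of all annotated exons, so genes with many unused exons are set too low on this scale.

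**Figure D3:**
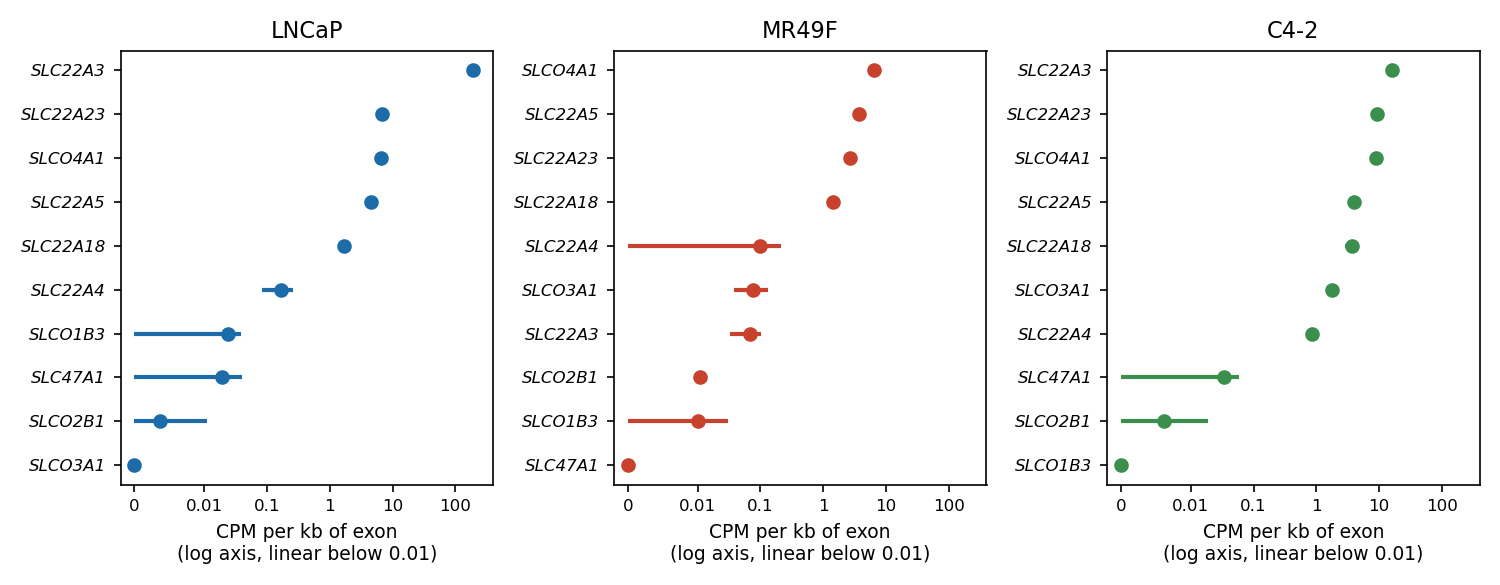
Level per kilobase of annotated exon (CPM per kb, log axis that is linear below 0.01) of the 10 transporters in each line, as the mean with the range of 3 replicates. SLC22A3 leads in LNCaP (189) and C4-2 (16.0) and lies at 0.0688 in MR49F, where SLCO4A1 leads at 6.58.

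The 10 genes summed to 786 ± 37.9 CPM in LNCaP, 262 ± 14.7 in C4-2 and 108 ± 5.41 in MR49F (SD, n = 3 each). SLC22A3 made up 80.3% ± 0.513, 20.4% ± 0.375 and 0.218% ± 0.121 of these sums, which are shares of reads and not of molecules.

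Several of the genes share exon sequence with another annotated gene, and the strand setting of the counting is not given in the sources used here. SLC22A23 shares 1388 exon bases with PSMG4 on the opposite strand, which measured 23.0, 21.2 and 28.5 CPM in LNCaP, MR49F and C4-2. SLC22A4 shares 235 bases and SLC22A5 shares 73 with the antisense MIR3936HG, at 12.6, 10.3 and 8.8 CPM. SLCO3A1 shares 538 bases with AC116903.1, which had no count in any library. SLC22A18 shares 227 bases with SLC22A18AS, and SLCO4A1 shares 346 with SLCO4A1-AS1, both of which had at most 7 pooled counts in any line. SLC22A3 overlaps no other gene in GENCODE 29. SLCO1B3 shares 1930 bases on the same strand with the readthrough gene SLCO1B3-SLCO1B7. Reads in the shared bases could have been lost to both genes, so the value of SLCO1B3 is uncertain.

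Within 250 kb, SLC22A3 is flanked by IGF2R and the cation transporter gene SLC22A2 on the lower side and by LPA and PLG on the upper side. IGF2R, the mannose 6-phosphate receptor that clears insulin-like growth factor 2, was the only tested protein-coding gene among them. Its level of 645 ± 13.7 CPM in LNCaP fell to 308 ± 24.3 in MR49F (log2 fold change -1.07, SE 0.0896, edgeR adjusted p = 4.13e-09) and to 268 ± 34.8 in C4-2 (log2 fold change -1.27, SE 0.09, edgeR adjusted p = 2.76e-10). IGF2R was thus lower in both derived lines, without the near loss seen for SLC22A3 in MR49F. SLC22A2, the renal carrier OCT2, had 1, 6 and 1 pooled counts in LNCaP, MR49F and C4-2, LPA had 1, 3 and 0, and PLG had 2, 1 and 0. Within the same distance of SLCO3A1, ST8SIA2, a polysialic acid synthase, was the only protein-coding gene and was too low to be tested, with 0, 12 and 77 pooled counts in LNCaP, MR49F and C4-2.

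**Figure D4:**
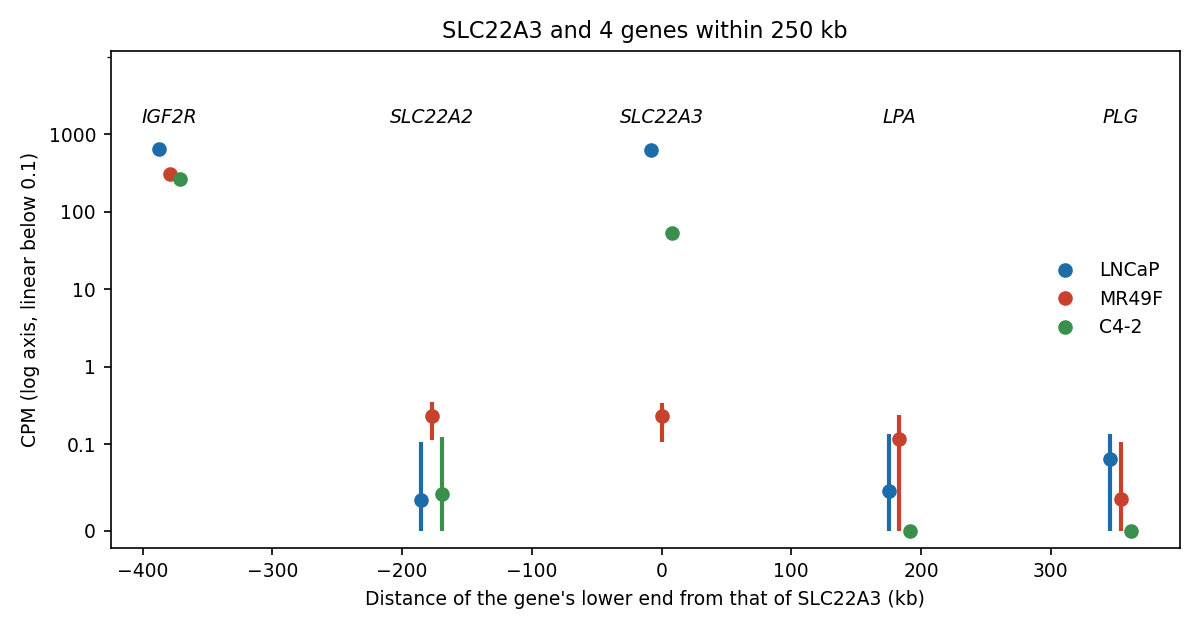
Mean level (CPM, log axis that is linear below 0.1) with the range of 3 replicates for SLC22A3 and 4 protein-coding genes whose nearest ends lie within 250 kb of it (IGF2R, SLC22A2, LPA and PLG), placed by the distance in kb between the genes' lower ends. IGF2R keeps 308 and 268 CPM in MR49F and C4-2, while SLC22A3 ranges from 0.109 CPM in MR49F to 669 CPM in LNCaP.

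The tested genes whose log2 CPM correlated most closely with SLC22A3 over the 9 libraries were NCAM2 (Pearson r = 0.9989), LUZP2 (0.9961), LPAR3 (0.9959) and SORBS2 (0.995), with 1 gene of the Y chromosome that is not named. NCAM2, a neural cell adhesion molecule, measured 892, 135 and 481 CPM in LNCaP, MR49F and C4-2. LPAR3, a lysophosphatidic acid receptor, measured 88.7, 3.35 and 23.6 CPM, and SORBS2, a cytoskeletal adaptor, 29.1, 0.117 and 5.37 CPM. For SLCO3A1 the closest were CYP4F8 (r = 0.9986), the vitamin D binding protein gene GC (0.9947), ELOVL5 (0.9938), PPIC (0.9915) and ERO1A (0.9913). CYP4F8, a prostaglandin hydroxylase of the seminal tract, was at 0 in LNCaP, 0.644 CPM in MR49F and 12.1 CPM in C4-2. ELOVL5, a fatty acid elongase, measured 389, 583 and 1107 CPM. The 9 points stand for 3 lines and share their libraries, so such correlations mostly describe the order and spacing of 3 lines.

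The remaining genes of the pathways these transporters serve were taken in 8 lists of 116 genes, of which 63 were tested and 17 were at 0 in all libraries. The lists were drawn up with earlier results of these data known. Over all tested genes, edgeR called 24.1% higher and 22.8% lower in MR49F than in LNCaP (47.0% in all), and 26.2% higher and 23.5% lower in C4-2 (49.7% in all), at an adjusted p under 0.05. The median log2 fold change of all tested genes was 0.01 for MR49F and 0.0 for C4-2.

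Most other genes of the transporter families were not expressed at a level that could be tested. Of 17 other SLC22 genes 4 were tested, and 1 rose, 1 fell and 2 did not pass in either comparison (median log2 fold change 0.1 for MR49F and -0.01 for C4-2). The orphan SLC22A15 fell in MR49F (log2 fold change -0.91, SE 0.216, edgeR adjusted p = 0.00169) and rose in C4-2 (0.71, SE 0.176, adjusted p = 0.00236). SLC22A31 rose in MR49F (0.74, SE 0.245, adjusted p = 0.0177), a call lost without LNCaP replicate 1 (adjusted p = 0.131), MR49F replicate 1 (0.111) or MR49F replicate 2 (0.0528), and it had a log2 fold change of 0.34 in C4-2 (adjusted p = 0.249), or -0.02 without C4-2 replicate 1. SLC22A10 fell in C4-2 by 1.81 on the log2 scale (adjusted p = 8.56e-04). SLC22A17, a lipocalin receptor, had a log2 fold change of -0.01 in MR49F (adjusted p = 0.984).

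Of 9 other SLCO and SLC47 genes 2 were tested. SLCO5A1, an orphan OATP, fell in MR49F from 19.5 ± 1.25 to 8.75 ± 0.116 CPM (log2 fold change -1.16, SE 0.14, edgeR adjusted p = 8.41e-07) and had a log2 fold change of -0.13 in C4-2 (adjusted p = 0.393). The prostaglandin importer SLCO2A1 had a log2 fold change of -0.37 in MR49F (adjusted p = 0.386). In C4-2 edgeR called 0 of the 2 genes, also 0 at an unadjusted p under 0.05, and DESeq2 called 0. The medians were -0.76 for MR49F and 0.0 for C4-2.

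The list of monoamine transport and breakdown holds the route that handles OCT3 substrates. In MR49F 5 of its 9 tested genes rose and 2 fell (median 0.26), and in C4-2 2 rose and 6 fell (median -0.49). MAOA, the mitochondrial monoamine oxidase A, rose in MR49F from 467 ± 9.01 to 1315 ± 36.3 CPM (log2 fold change 1.49, SE 0.0752, edgeR adjusted p = 1.04e-12). ALDH2, an aldehyde dehydrogenase that acts after it, rose from 18.2 ± 0.653 to 57.2 ± 5.83 CPM (1.65, SE 0.103, adjusted p = 3.4e-11), and the amine-forming decarboxylase DDC rose by 0.85 (adjusted p = 3.86e-07). In C4-2 the vesicular polyamine transporter SLC18B1 (log2 fold change -1.27, adjusted p = 3.29e-09), the plasma membrane monoamine transporter SLC29A4 (-1.11, 1.75e-05) and the aldehyde dehydrogenase ALDH1B1 (-0.62, 1.08e-06) fell. SLC29A4 had a log2 fold change of -0.13 in MR49F (adjusted p = 0.541).

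In the carnitine list, which holds the enzymes that make carnitine and shuttle acyl groups into mitochondria, 9 of 12 tested genes fell in MR49F and 2 rose (median -0.66). In C4-2 4 rose and 3 fell (median 0.18). DESeq2 called 2 higher and 8 lower in MR49F, and 3 higher and 3 lower in C4-2. Among the 9, ALDH9A1 was at the threshold in MR49F (log2 fold change -0.19, edgeR adjusted p = 0.0499). CRAT, carnitine acetyltransferase, fell in MR49F from 31.8 ± 3.07 CPM to a level of 6.03 ± 1.02 (log2 fold change -2.4, SE 0.148, edgeR adjusted p = 2.76e-11) and to 4.58 ± 0.602 in C4-2 (-2.73, SE 0.144, adjusted p = 2.6e-12). The mitochondrial carnitine carrier SLC25A20 fell in MR49F from 21.4 ± 1.55 to 8.27 ± 1.19 CPM (-1.37, adjusted p = 5.81e-08). The acyl-CoA synthetase ACSL3 rose in MR49F from 482 ± 8.55 to 1151 ± 107 CPM (1.26, adjusted p = 2.56e-11), with -0.01 in C4-2 (0.922), and ACSL1 rose in C4-2 by 1.07 (1.1e-10). The inner membrane transferase CPT2 fell in C4-2 by 0.51 (3.94e-05) and had a value of -0.1 in MR49F (0.344). TMLHE and BBOX1, of carnitine synthesis, and the carrier SLC6A14 were at 0 in all libraries.

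Of the genes that handle steroid sulfates, 1 of 9 tested rose and 1 fell in MR49F (median -0.1), and 5 rose and 2 fell in C4-2 (median 0.68). SUMF2, a sulfatase modifying factor, rose in both, by 0.48 (edgeR adjusted p = 2.85e-04) and 0.67 (5.53e-06), and its paralog SUMF1 rose in C4-2 by 0.82 (4.17e-07). SLC51A, a subunit of the organic solute and steroid transporter, fell in MR49F (adjusted p = 1.05e-04), with 26 pooled counts in LNCaP and 1 in MR49F (LNCaP to MR49F ratio 26.8, exact 95% binomial interval 4.41 to 1100), and rose in C4-2 by 2.51 (1.54e-07). The efflux pump ABCC1 had -0.18 in MR49F (0.0589, under 0.05 in 5 of 16 alternatives) and -0.01 in C4-2 (0.928).

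Genes of thyroid hormone transport and action, a substrate class of the OATPs, were called in 9 of 11 tested cases in each comparison. In MR49F 3 rose and 6 fell (median -0.54), and in C4-2 6 rose and 3 fell (median 0.59), where DESeq2 called 6 higher and 1 lower. SLC7A5, the light chain of an amino acid exchanger that also carries thyroid hormone, rose in C4-2 from 5.59 ± 1.05 to 239 ± 28.3 CPM (log2 fold change 5.42, SE 0.133, edgeR adjusted p = 8.77e-18). Its relative SLC7A8 rose by 1.48 (4.54e-11) and the aromatic amino acid carrier SLC16A10 by 1.27 (2.31e-09), against 0.06 for SLC16A10 in MR49F (0.715). The plasma carrier protein TTR (-2.74, 1.69e-05), which is also one of the hepatocyte markers above, fell in MR49F and rose in C4-2 (1.46, 2.16e-05). The receptor THRA rose in MR49F by 1.26 (1.09e-09) and had -0.25 in C4-2 (0.0505, under 0.05 in 6 of 16 alternatives).

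In the prostaglandin list, 4 of 11 tested genes rose and 3 fell in MR49F (median 0.02), and 7 rose and 1 fell in C4-2 (median 0.67). The exception in C4-2 was HPGD, which inactivates prostaglandins and went down from 17.9 ± 1.74 CPM in LNCaP to 1.44 ± 0.0749 CPM in C4-2 (log2 fold change -3.67, SE 0.183, edgeR adjusted p = 1.03e-12). The cyclooxygenase PTGS1 rose in C4-2 from 0.485 ± 0.181 to 4.95 ± 0.725 CPM (3.41, SE 0.327, adjusted p = 2.89e-08). This SE is below the counting error, as LNCaP had 12 pooled counts. The reductase PTGR1 rose in C4-2 by 1.46 (7.95e-11) and fell in MR49F by 0.73 (1.84e-05). In MR49F the carbonyl reductase CBR1 rose by 1.51 (1.18e-10) and the receptor PTGER4 by 2.64 (5.55e-08). The synthases PTGES2 (0.02 in MR49F, 0.895) and PTGES3 (-0.06 in C4-2, 0.555) did not pass.

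Of the scaffolds and regulators of transporters, 5 of 12 were tested, and 1 rose in MR49F (median -0.08) while in C4-2 2 rose and 1 fell (median 0.3). No scaffold or regulator fell in MR49F by edgeR, also 0 at an unadjusted p under 0.05 and 0 by DESeq2. NHERF1, a scaffold that holds transporters at the membrane, rose in both lines, by 0.5 (edgeR adjusted p = 2.07e-04) and 0.49 (2.3e-04). The nuclear receptor RXRA rose in C4-2 by 0.35 (9.98e-04) and had -0.08 in MR49F (0.453). DESeq2 called 2 higher and 0 lower in C4-2. NHERF2 had -0.08 in C4-2 (0.546).

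**Figure D5:**
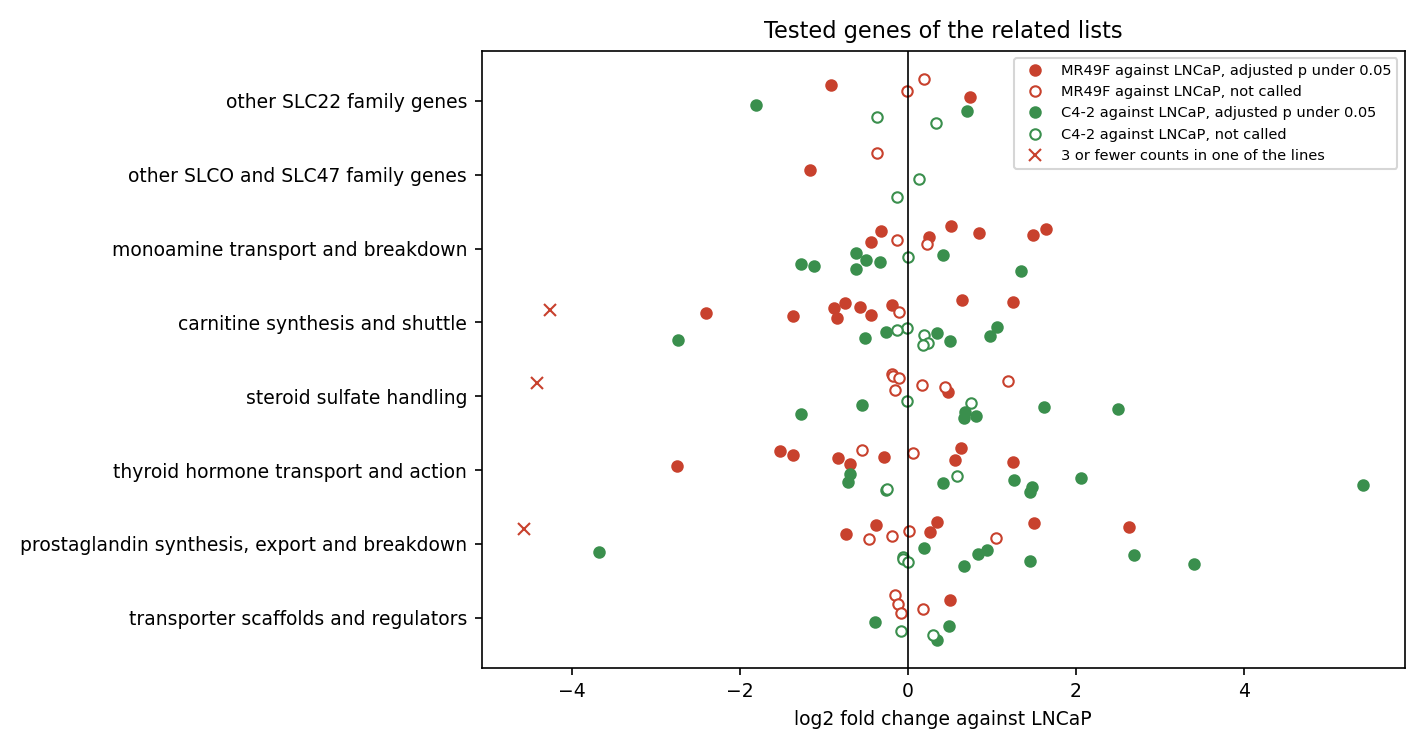
Log2 fold change against LNCaP of each tested gene of the 8 lists, filled where the edgeR adjusted p was under 0.05, with crosses for genes at 3 or fewer counts in a line. In the carnitine list 9 of 12 genes fell in MR49F by edgeR (8 by DESeq2), and in the thyroid hormone list SLC7A5 stands at 5.42 in C4-2.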

How the data were processed

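Per the labels' protocols, poly(A) RNA of LNCaP, MR49F and C4-2 cells went through a TruSeq stranded preparation and paired-end HiSeq2500 sequencing. The deposited values are whole-number counts per Ensembl gene that the authors left unnormalized. HTSeq 0.6.1, TopHat2, the GRCh38 build, edgeR 3.12.1 and FastQC 0.11.3 appear in the submitters' processing notes, with no role given. Neither the counting's strand setting nor the annotation release is stated there, which leaves overlapping genes uncertain. Columns were used where the name matches a sample title, 9 in all. Another 3 columns match no title and entered no step, so C4-2R is not analysed here.

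The transporters, the lists, the markers and the rule for named genes were chosen with earlier results of these data known. The rule names all 10 transporters, tested protein-coding genes within 250 kb of SLC22A3 and SLCO3A1, and the 5 genes whose log2 CPM (prior count 2) correlates most with each of the pair. In each list and comparison it also names up to 3 called genes of lowest adjusted p and the most abundant tested gene that did not pass. Some genes that this rule names are not reported here. Of the table's entries, 57388 matched GENCODE 29 and 56948 a table of gene names.

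Counts were fitted in R 4.3.3 with edgeR 4.0.16 and its quasi-likelihood test (TMM, filterByExpr by line, robust), with all 9 libraries, 6 residual degrees of freedom and a common biological coefficient of variation of 0.0817. Benjamini-Hochberg adjustment ran over all 15407 tested genes, and SE was taken as |log2 fold change| over the root of F. An SE of this kind can understate the error where a line has few counts. Every adjusted p in the text is from this fit unless another tool is named. For 3 against 3 libraries, the smallest two-sided p an exact permutation test allows is 0.1, so none is reported. Where a line had no count, folds are bounds against 3 counts over the group, and at 1 to 3 counts pooled ratios carry 95% intervals from the exact binomial. The bounds allow for counting error only in the line with no count, and the ratios for counting error alone. The fit was also run on simulated counts that gave every gene the same spread. That setting is simpler than these data, so nothing is concluded from it. Alternatives were DESeq2 1.42.0, other scalings and filters, fewer libraries, a replicate block and each library left out. C4-2 replicate 1 was also thinned to 17.6% of its counts. The contrast of MR49F with C4-2 was added after seeing the data.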

Additional observations from a re-analysis of the deposited data

How the results depend on the processing

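Across 16 alternatives no listed gene that passed the test changed sign. Among values near 0, SLCO4A1, SLC22A17, SLC16A10 and PTGES2 (MR49F against LNCaP), SLC22A31, SLCO5A1, ACSL3, ABCC1 and NHERF2 (C4-2 against LNCaP) and SLC22A5 (MR49F against C4-2) changed sign with some libraries left out, to between -0.02 and 0.07. The 7235 genes called for MR49F against LNCaP became 6065 to 8475 with single libraries left out and 6512 to 8211 otherwise, with 6512 under DESeq2. The 7658 for C4-2 against LNCaP became 6463 to 8233 and 6817 to 8233, with 6817 under DESeq2. Replicate numbers did not pair the libraries: deviations of same-numbered libraries correlated at -0.0832 to 0.0562, and 1 of 9 libraries correlated best with its own number. With a replicate block the counts were 7115 and 7460. SLC22A3 kept a log2 fold change of -11.78 to -11.03 for MR49F and -3.62 to -3.52 for C4-2. The lower bound of SLCO3A1 in C4-2 (log2 7.16) was 6.5 to 7.19 with single libraries left out, lowest without an LNCaP library, where a smaller pooled LNCaP depth raises the floor. The bound for MR49F (log2 2.62) was 1.94 to 2.93 in the same way. Of other SLC22 genes, 2 were called in each comparison, but 4 with no count filter and 1 without LNCaP replicate 1 for MR49F, and 1 with only the 6 libraries compared for C4-2. For other SLCO and SLC47 genes in C4-2, 0 became 1 with no count filter, which tests more genes. With only the 6 libraries compared, SLC22A4 and SLC51A (MR49F) and SLC22A10 (C4-2) did not pass the count filter and gave no value. Depth limits SLCO1B3, SLCO2B1, SLC47A1 and SLC22A4, which had at most 16 pooled counts in any line except SLC22A4 in C4-2 (124).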
